A study of Rattus norvegicus with 6 samples.

Results

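The proteasome genes were taken as every probe set with a single platform gene symbol beginning with Psma, Psmb, Psmc, Psmd or Psme, leaving out Psmb8 and Psmb9. This rule took in 39 probe sets of 36 genes, out of 10411 genes with a single symbol on the array, and it used no measured value. The signals come from 6 Affymetrix RAE230A arrays, each of 15923 probe sets, hybridised with total RNA of mesenchymal stromal cells, plastic-adherent cells raised from mononuclear cells of blood or marrow. Each of 3 GFP transgenic rats (S4, S5 and S6) gave 1 culture from peripheral blood and 1 from bone marrow, so that the groups of 3 blood and 3 marrow cultures are paired by rat. All cultures carried the GFP transgene, were grown in the same medium with 15% fetal bovine serum and were taken at passage 2. The sources used here state no strain, age or promoter of the transgene. A positive difference means a higher log2 signal in blood than in marrow cultures, and errors after ± are the SE of the fit unless given as SD. That the logarithms are to base 2 was inferred from the range of the values.

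The proteasome is the protease that breaks down proteins tagged with ubiquitin, in the cytosol and the nucleus of every cell. Its barrel-shaped core particle is built of rings of alpha subunits, which gate the entrance, and rings of beta subunits, some of which carry the cutting sites. A regulatory particle caps the barrel: in its base, ATPases unfold the substrate and thread it into the core, and in its lid the ubiquitin chain is removed. Other caps, the activators, open the core without ATP. When the proteasome is inhibited, cells make more of nearly all subunits together, through the transcription factor NRF1.

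No proteasome gene differed between blood and marrow cultures past the threshold. Of the 39 probe sets, 38 passed the filter on signal, which asked for a signal above 8.18, the median of the whole table, in each culture of at least 1 group; they stand for 35 genes. Psmb6, Psmc6, Psmd12 and Psmd14 have no probe set with a single symbol in the annotation used here. None of these 38 passed an adjusted p of 0.05 in limma with the rat as a term and Benjamini-Hochberg adjustment over all 7625 tested probe sets, of which 3.13% passed, 1.39% higher and 1.74% lower in blood. At an unadjusted p under 0.05 there were 3 of 38, against 15.2% of all tested probe sets. The 3 were those of Psmd10, a chaperone of regulatory particle assembly, Psmc3ip, a partner protein that is no subunit, and the alpha subunit Psma3. In 2 of 38, those of Psmd10 and Psmc3ip, the blood and marrow values did not overlap, against 19.6% of all tested probe sets. Psmc3ip passed the filter only through the blood cultures, where it was higher, so its place in both counts is a description only.

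The differences of the subunits that build the particle were small. Of the genes taken in by symbol, 13 of the core particle and 14 of the regulatory particle were measured. Over these 27 genes the absolute log2 difference had a median of 0.05, against 0.13 over all 5753 measured genes, and it was 0.1 or less in 21 of them. No member reached a difference of 0.5, or 1.41-fold, which 9.98% of all measured genes exceeded. The 27 genes had mean signals of 8.97 or more, whereas all measured genes include dimmer ones. None of the comparisons with all measured genes or all tested probe sets was matched for signal. The 95% intervals of 26 of the 27 covered 0, and those of 24 lay wholly within 0.5 of it. The lowest bound was a fold of 0.67, for Psmc3, and the highest 1.69, for Psma3. The interval that left out 0 was that of Psma3.

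**Figure D1:**
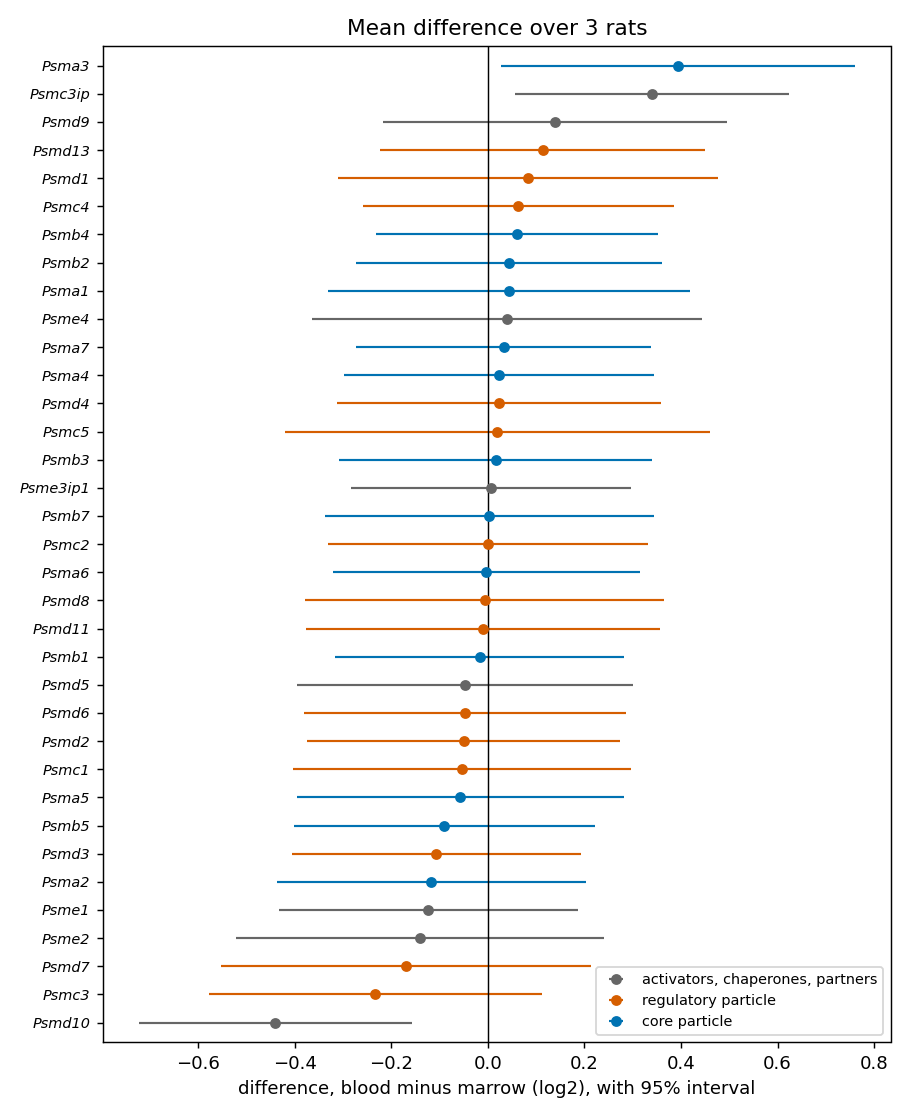
Mean log2 difference, blood minus marrow, of the 35 measured proteasome genes (points) with unadjusted 95% intervals (bars), coloured by particle and ordered by size. Most points lie within 0.1 of 0, with Psmd10 at -0.44 at one end and Psma3 at 0.39 and Psmc3ip at 0.34 at the other.

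In rats S4 and S5, however, nearly all subunits lay on 1 side of 0, and the side was opposite in these rats, while rat S6 was mixed. In rat S4 all 27 core and regulatory particle genes were higher in the blood culture, with a median difference of 0.21. In rat S5 26 of 27 were lower in the blood culture, with a median of -0.19, and the exception was Psma3. In rat S6 19 of 27 were lower, with a median of -0.10. Over all measured genes the same medians were 0.10, -0.09 and -0.05, so the arrays as a whole shifted in the same order of rats by smaller amounts. Of all measured genes 62.6% were higher in blood in rat S4, 63.5% lower in rat S5 and 57.2% lower in rat S6. Counting all members, 34 of 38 probe sets were higher in rat S4 and lower in rat S5, against 35.3% of all tested probe sets, and 23 of 38 were lower in rat S6 as well, against 20.3%.

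**Figure D2:**
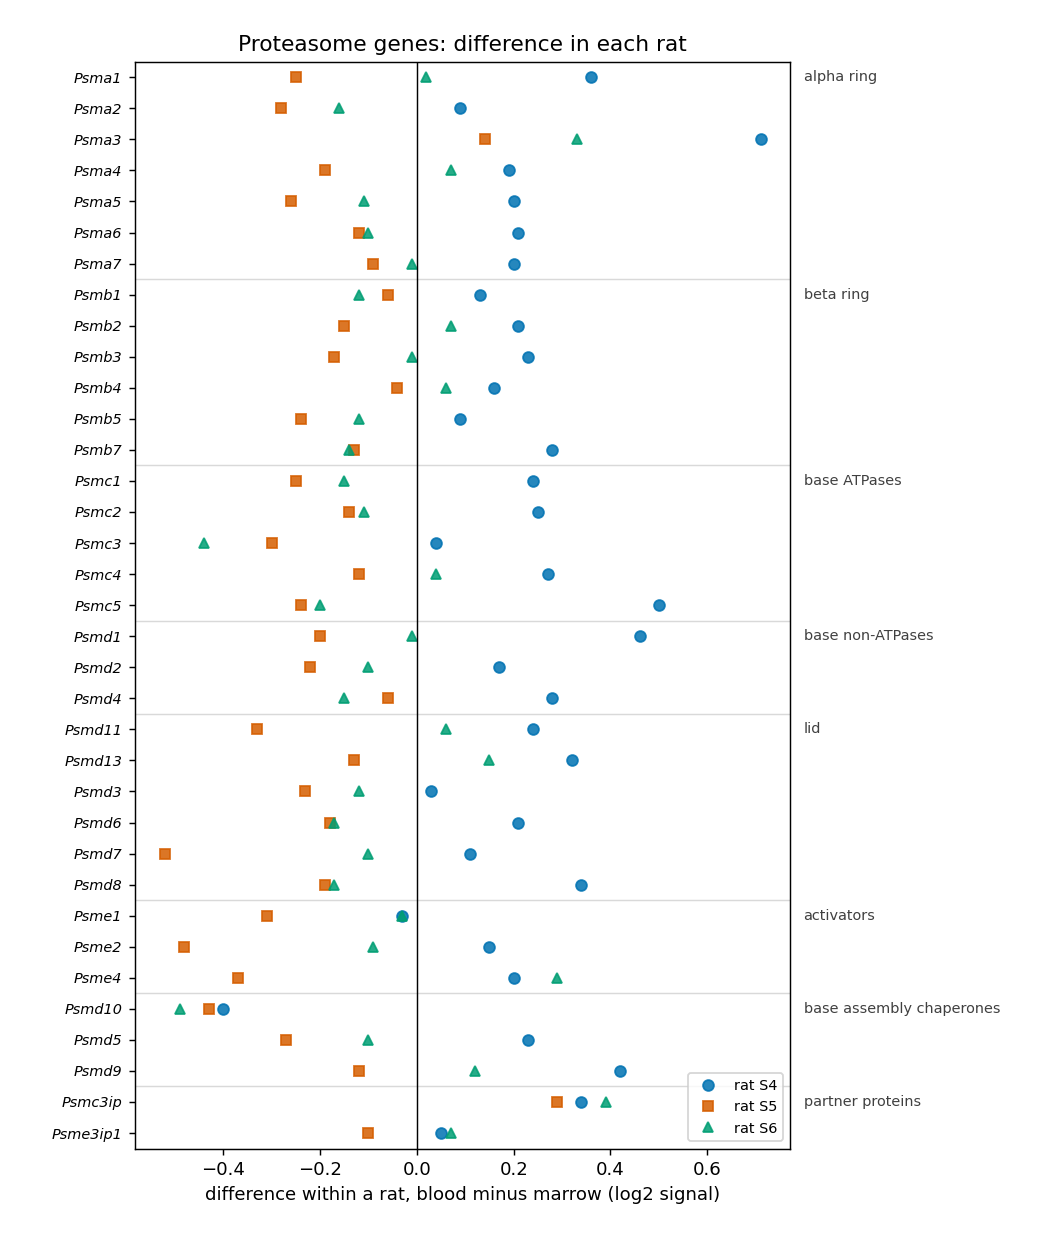
Difference between the blood and the marrow culture of each rat (log2 signal) for the 35 measured proteasome genes, grouped by role; circles are rat S4, squares S5 and triangles S6. All circles of core and regulatory particle genes lie above 0 and all squares but that of Psma3 below 0, whereas the 3 symbols of Psmd10 lie close together at -0.40, -0.43 and -0.49.

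The opposite medians of rats S4 and S5 were still present, at smaller sizes, after the arrays were brought to a common level. With a common trimmed mean signal, which set the medians of all genes in rats S4, S5 and S6 to -0.00448, -0.02 and -0.01, the 27 genes stood at medians of 0.11, -0.12 and -0.06. With quantile normalization they stood at 0.10, -0.11 and -0.05. The genes on the shared side became fewer: of 27, those higher in blood in rat S4 numbered 23 with the common trimmed mean and 22 after quantile normalization, those lower in rat S5 23 and 24, and those lower in rat S6 16 under both. In rat S6 the core median turned from -0.01 to 0.03 and 0.02. The difference in rat S4 exceeded that in rat S5 in all 27 genes on the deposited values and under both scalings, against 70.9% of all measured genes on the deposited values, 52.7% with the common trimmed mean and 51.5% after quantile normalization. This count was chosen after the values were seen and is a description, since each rat gave 1 pair of cultures.

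Set out by culture, the marrow culture of rat S4 and the blood culture of rat S5 were low in proteasome signal, and the marrow culture of rat S6 was high in the regulatory particle. For each gene the signal was taken relative to its mean over the 6 arrays. Taking rats S4, S5 and S6 in turn, the median over the 14 regulatory particle genes was -0.14, -0.02 and 0.22 in marrow cultures and 0.13, -0.25 and 0.09 in blood cultures. The core particle had a narrower range, at -0.10, 0.04 and 0.07 in marrow and 0.08, -0.12 and 0.05 in blood cultures. All measured genes stood at -0.04, 0.01 and 0.06 in marrow and 0.06, -0.08 and 0.01 in blood cultures. On the common trimmed mean the regulatory particle still ran from -0.17 in the blood culture of rat S5 to 0.16 in the marrow culture of rat S6, and the core particle from -0.06 in the marrow culture of rat S4 to 0.05 in that of rat S5. The core value of the marrow culture of rat S6 went from 0.07 to 0.0075 on that scale and to -0.01 after quantile normalization, so its high value held under scaling only for the regulatory particle.

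**Figure D3:**
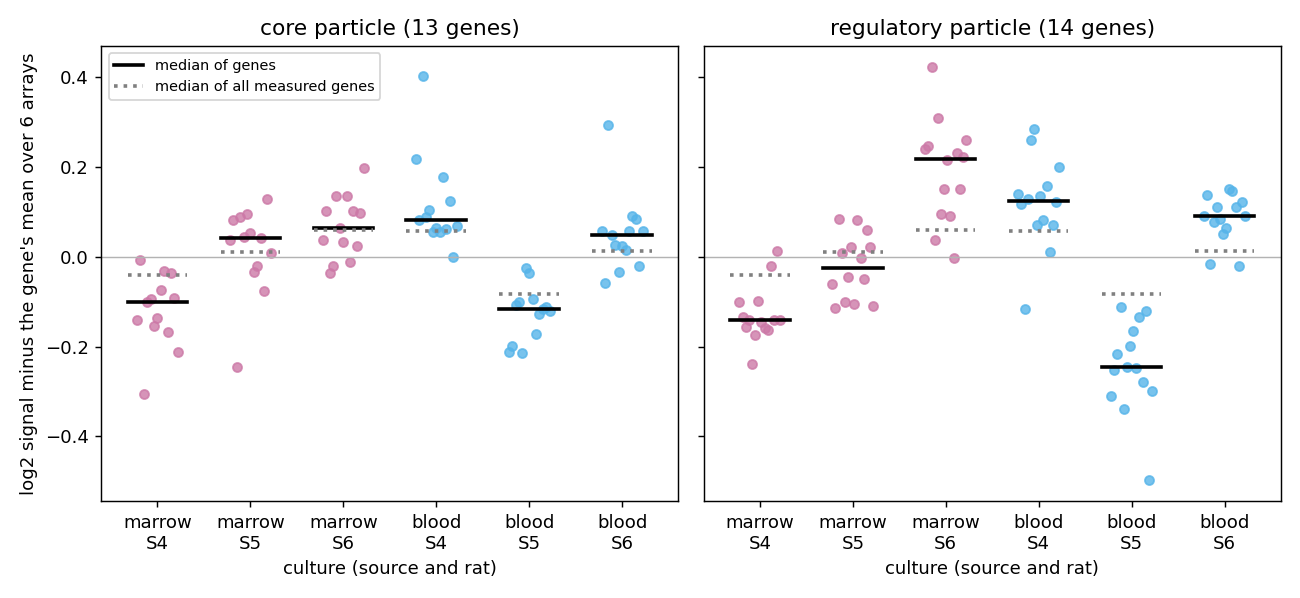
Log2 signal of each core particle gene (left) and regulatory particle gene (right) minus that gene's mean over the 6 arrays, by culture; points are genes, black bars their medians and dotted bars the medians of all measured genes. The blood culture of rat S5 lies lowest and, for the regulatory particle, the marrow culture of rat S6 highest, while blood and marrow overlap.

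Markers of another cell type moved in rat S4 as well. Of 11 macrophage and leukocyte markers 8 were measured, and their median difference was 1.34 in rat S4, 0.12 in rat S5 and 0.06 in rat S6. In rat S4 7 of the 8 were higher in blood, whereas Aif1 was lower, at -0.43. The mean log2 signal of these 8 ranged from 9.47 to 10.48 in marrow and from 10.21 to 10.55 in blood cultures, with its lowest value in the marrow culture of rat S4. The other 3, Ptprc, Csf1r and Itgam, lay below the filter, and no marker of the list was at 0. The stromal markers were uneven. Col1a1 stood at 12.54 ± 0.20 (SD, n = 3) in marrow and 13.01 ± 0.02 in blood cultures, and Vim at 12.81 and 12.82. Of the 7 measured stromal markers only Eng passed, higher in blood by 1.62, with 8.25 in the marrow culture of rat S4. The mean difference was above 0 in 6 of the 7, with Col1a2 at 0.29 and Cd44 at 0.01. The other, Pdgfrb, differed by -0.38, with -0.55, -0.54 and -0.04 in rats S4, S5 and S6. Nt5e differed by 0.77 and was as low as 8.43 in the marrow culture of rat S5. Thy1, which lay below the filter, read 9.38, 7.68 and 9.84 in marrow and 7.02, 9.42 and 7.41 in blood cultures of rats S4, S5 and S6, so that rat S5 ran opposite to the others. The part of these cells in the proteasome values was not tested, and in such cultures fewer cells of a type and less RNA per cell cannot be told apart. All 8 proliferation markers had a mean difference below 0. Mcm2 and Pcna, which passed the filter, differed by -0.51 and -0.17 and did not pass the test (adjusted p = 0.187 and 0.688). The other 6 lay below the filter and were not tested: Mki67 differed by -0.95, with -0.64, -1.12 and -1.08 in the 3 rats, Top2a by -0.81, Cdk1 by -0.60, Mcm6 by -0.37, Ccnb1 by -0.26 and Mcm3 by -0.15. The part of this difference in the proteasome values was not tested either.

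The alpha ring forms the gate of the core. Its 7 measured genes had a median difference of 0.02, from -0.12 to 0.39. The positive end was Psma3, whose signal was 8.73, 8.79 and 9.0 in marrow and 9.44, 8.93 and 9.33 in blood cultures of rats S4, S5 and S6. Each rat had the higher value in blood, but the blood value of rat S5 lay below the marrow value of rat S6, so the groups overlapped. The difference of 0.39 ± 0.15, or 1.31-fold, did not pass (adjusted p = 0.291) and was 0.71 in rat S4, 0.14 in rat S5 and 0.33 in rat S6. A further probe set names both Psma3 and Psma3l, a gene named as like it, and was not used; whether the probe set used here also reads Psma3l was not tested. At the other end Psma2 read 11.01, 11.10 and 11.12 in marrow and 11.10, 10.82 and 10.96 in blood cultures. Its groups also overlapped, and it differed by -0.12 ± 0.13 (adjusted p = 0.791).

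The beta ring holds the cutting sites. Psmb5 carries the chymotrypsin-like site that proteasome inhibitor drugs mainly bind, and Psmb7 the trypsin-like site; Psmb6, of the third site, has no probe set with a single symbol. The 6 measured genes had the narrowest range of the roles with more than 3 genes, from -0.09 to 0.06 with a median of 0.01. Psmb5 read 11.23, 11.45 and 11.42 in marrow and 11.32, 11.21 and 11.30 in blood cultures. It had the most negative difference of the ring, -0.09 ± 0.13 (adjusted p = 0.844), with an interval from -0.40 to 0.22. Psmb4 had the most positive, 0.06 ± 0.12 (adjusted p = 0.901), at 11.29, 11.25 and 11.35 in marrow and 11.45, 11.21 and 11.41 in blood cultures. Blood and marrow values of both genes were interleaved. Psmb10, the interferon-inducible replacement of the trypsin-like subunit, was the member below the filter, at 8.06, 8.27 and 7.97 in marrow and 8.01, 8.01 and 8.13 in blood cultures. The inducible subunits that the rule leaves out were no clearer: Psmb9 differed by 0.07, -0.79 and 0.31 in the 3 rats (adjusted p = 0.872), and Psmb8 lay below the filter.

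The ATPases of the base pull substrates into the core. The 5 measured genes differed by -0.23 to 0.06. Psmc3 read 10.12, 10.36 and 10.70 in marrow and 10.16, 10.06 and 10.26 in blood cultures; the marrow value of rat S6 stood highest, and the groups overlapped. It differed by -0.23 ± 0.14 (adjusted p = 0.542), through -0.30 in rat S5 and -0.44 in rat S6 against 0.04 in rat S4. Psmc4 read 10.07, 10.22 and 10.25 in marrow and 10.34, 10.10 and 10.29 in blood cultures. It differed by 0.06 ± 0.13 (adjusted p = 0.905). Psmc5 had the widest spread between rats of all member genes, 0.50 in rat S4 against -0.24 and -0.20 in rats S5 and S6, and a mean of 0.02 ± 0.18.

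The other base subunits, Psmd1 and Psmd2, the large scaffolds, and Psmd4, a ubiquitin receptor, differed by 0.08, -0.05 and 0.02. The 6 measured lid genes differed by -0.17 to 0.11. Psmd7, which pairs with the lid's deubiquitinase, read 10.21, 10.22 and 10.42 in marrow and 10.32, 9.70 and 10.32 in blood cultures. Its difference of -0.17 ± 0.16 (adjusted p = 0.734) came from the blood culture of rat S5, which stood below the other 5 cultures. Psmd3, a structural lid subunit, read 8.95, 8.92 and 9.20 in marrow and 8.98, 8.69 and 9.08 in blood cultures, and so differed by -0.11 ± 0.12 (adjusted p = 0.800). Psmd13, another structural lid subunit, differed by 0.11 ± 0.14 (adjusted p = 0.811), with 9.25, 9.41 and 9.41 in marrow and 9.57, 9.28 and 9.56 in blood cultures. Values of both genes overlapped between the groups. The 2 probe sets of Psmd11 gave the same difference, -0.01 each.

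Taking the particles as wholes, the median difference was 0.02 for the core and -0.01 for the regulatory particle, with an SD of the rat medians of 0.18 and 0.24 (n = 3). The median over all measured genes was -0.01. In the core 8 of 13 genes were above 0 and in the regulatory particle 5 of 14. Without rat S4 the medians were -0.09 and -0.17, without rat S5 0.095 and 0.07, and without rat S6 0.035 for both. Both medians were therefore smaller than the spread between rats, and their sign changed with the rat left out.

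The activators cap the core in place of the regulatory particle. Psme1 and Psme2 form the interferon-inducible ring that favours peptides for antigen presentation, and Psme4 caps nuclear proteasomes that act on acetylated histones. Psme1 read 10.65, 10.48 and 10.67 in marrow and 10.62, 10.17 and 10.64 in blood cultures, and so differed by -0.12 ± 0.13 (adjusted p = 0.770). Psme2 read 9.41, 9.65 and 9.51 in marrow and 9.56, 9.17 and 9.42 in blood cultures, and differed by -0.14 ± 0.16 (adjusted p = 0.790). For both genes the blood culture of rat S5 was the lowest of the 6. Psme4 read 10.06, 10.05 and 9.98 in marrow and 10.26, 9.68 and 10.27 in blood cultures on its brightest probe set. It differed by 0.04 ± 0.17 there (adjusted p = 0.958) and by 0.10 and -0.01 on its other probe sets, so its 3 probe sets did not have the same sign. Probe sets that name Psme3 name other genes as well and were not used.

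Psmd10 stood apart from this shared course. It encodes gankyrin, a chaperone that holds the ATPase Psmc4 while the base is assembled and that is also known for binding the retinoblastoma protein and the p53 ligase Mdm2. Its signal was 10.24, 10.37 and 10.35 in marrow and 9.84, 9.94 and 9.86 in blood cultures of rats S4, S5 and S6. Every blood culture lay below every marrow culture, and the difference was -0.40, -0.43 and -0.49 in the 3 rats. Over all tested probe sets 12.1% were lower in blood without overlap. The mean difference was -0.44 ± 0.12, a level 1.36-fold lower in blood cultures with a 95% interval of the fold from 0.61 to 0.90. It did not pass over all probe sets (unadjusted p = 0.00882, adjusted p = 0.135), and over the alternatives run the adjusted p ranged from 0.079 to 0.566 while the difference stayed between -0.46 and -0.415. The other assembly chaperones of the base had no such run of signs: Psmd5 differed by 0.23, -0.27 and -0.10 in the 3 rats and Psmd9 by 0.42, -0.12 and 0.12, both in the order of rats seen for the subunits.

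The rule also took in 2 genes named after the subunits their proteins bind. Psmc3ip, which acts in meiotic recombination, read 8.32, 8.23 and 8.17 in marrow and 8.66, 8.52 and 8.56 in blood cultures. All 3 blood values lay above all marrow values, as in 7.57% of all tested probe sets. The difference of 0.34 ± 0.12 was alike in the 3 rats, at 0.34, 0.29 and 0.39, and did not pass (adjusted p = 0.238; 0.161 to 0.714 over the alternatives). Its marrow signals lay near the table's median of 8.18, where no background level is known. With 8.17 in the marrow culture of rat S6, Psmc3ip passed the filter only through the blood cultures, where it was higher. Its lack of overlap and its p are therefore descriptions and no support for a difference. Psme3ip1, a partner of the activator Psme3, differed by 0.01 ± 0.12. Psmd10, Psmc3ip, Psma3 and Psme1 made up the 4 of 38 probe sets with the same sign in all 3 rats, against 35.3% of all tested probe sets.

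**Figure D4:**
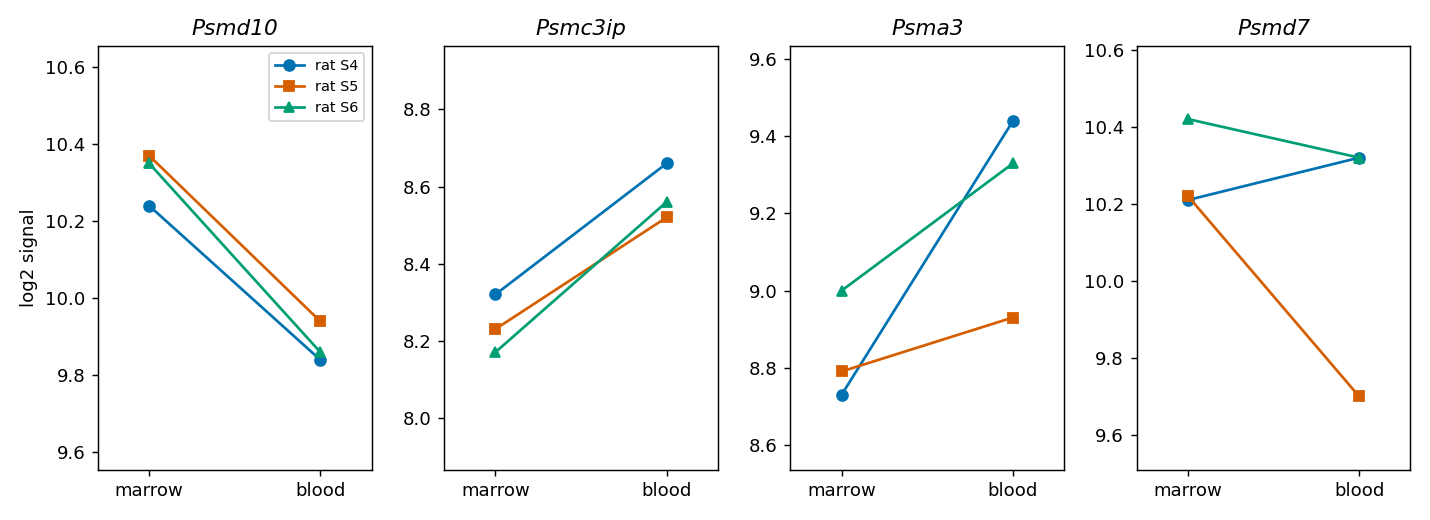
Log2 signal in the marrow and blood culture of each rat for Psmd10, Psmc3ip, Psma3 and Psmd7; lines join the cultures of 1 rat, and all panels span the same number of log2 units. The lines of Psmd10 and Psmc3ip run nearly parallel, those of Psma3 differ in slope, and only rat S5 has a low blood value for Psmd7.

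Because nearly all subunit genes shared a direction in rat S4 and the opposite one in rat S5, the stretches before their start sites were read for the letters that NRF1 and its relatives are known to recognise, the core of the antioxidant response element. Promoter sequences came from RefSeq on GRCr8, where 34 of the 36 genes had an entry and Psma7 and Psmd6 had none. The letters TGACNNNGC, on either strand, were found in the 250 bases before the start of 6 of 34 member genes, or 17.6%, and of 10.1% of all 33469 promoters in the table. The 6 were Psma3, Psmb2, Psmb5, Psmd1, Psmd9 and Psme4. The shorter letters CCAAT, on either strand, were found in 18 of 34, against 34.0% of all promoters. Each member gene was counted with 1 promoter, whereas the comparison took every promoter entry, not only those of genes on the array. Shown here, with the matching letters in capitals, are the stretches of Psma3, which had the most positive subunit difference, of Psmb5, which carries a cutting site, of Psmb2 and Psmd1 as core and base subunits of the common course, and of Psmd10, which departed from it. They lie at chr6:95219499-95219748, plus strand, chr15:32047380-32047629, minus strand, chr5:144254808-144255057, plus strand, chr9:94157721-94157970, plus strand and chrX:109453606-109453855, minus strand.
Psma3: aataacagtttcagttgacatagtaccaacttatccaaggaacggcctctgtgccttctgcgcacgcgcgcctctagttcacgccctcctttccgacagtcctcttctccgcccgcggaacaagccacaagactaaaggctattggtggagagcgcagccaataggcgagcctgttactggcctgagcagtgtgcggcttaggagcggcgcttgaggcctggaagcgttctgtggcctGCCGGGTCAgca
Psmb5: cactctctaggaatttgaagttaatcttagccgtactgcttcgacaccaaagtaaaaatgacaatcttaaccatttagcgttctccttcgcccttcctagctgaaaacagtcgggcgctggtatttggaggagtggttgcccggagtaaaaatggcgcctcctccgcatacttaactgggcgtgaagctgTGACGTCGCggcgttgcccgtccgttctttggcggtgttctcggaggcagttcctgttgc
Psmb2: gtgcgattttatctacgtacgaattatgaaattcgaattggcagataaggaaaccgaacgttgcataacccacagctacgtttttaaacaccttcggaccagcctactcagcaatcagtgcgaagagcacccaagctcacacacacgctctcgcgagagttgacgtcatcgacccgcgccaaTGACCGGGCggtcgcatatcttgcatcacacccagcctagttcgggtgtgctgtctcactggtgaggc
Psmd1: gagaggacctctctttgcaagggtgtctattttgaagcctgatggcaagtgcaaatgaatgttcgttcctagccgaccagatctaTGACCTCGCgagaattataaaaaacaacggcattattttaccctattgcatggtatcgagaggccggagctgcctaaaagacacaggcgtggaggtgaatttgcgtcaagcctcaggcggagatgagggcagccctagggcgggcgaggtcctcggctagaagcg
Psmd10: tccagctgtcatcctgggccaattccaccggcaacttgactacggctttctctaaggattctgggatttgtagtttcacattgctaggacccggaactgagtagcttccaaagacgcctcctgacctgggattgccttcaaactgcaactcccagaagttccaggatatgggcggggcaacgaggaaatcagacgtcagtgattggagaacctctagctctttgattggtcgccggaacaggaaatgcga
The match ends 3 bases before the start in Psma3, 51 in Psmb5, 59 in Psmb2 and 156 in Psmd1. That of Psmd10 holds no match, like the stretches of most member genes, including most subunits of the common course. This says only that these letters are not in this window. Psmb2 differed by 0.21 in rat S4, -0.15 in rat S5 and 0.07 in rat S6, and Psmb3, without a match, by 0.23, -0.17 and -0.01. A match is a description of letters and not of binding.

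The machinery around the proteasome showed no gene past the threshold either; of all measured genes 3.02% passed, and 14.7% had an unadjusted p under 0.05. Of 17 measured assembly and binding factors none passed, with 1 at an unadjusted p under 0.05. They include Adrm1 and Sem1, regulatory particle subunits outside the symbol rule, which differed by -0.01 and -0.13. Ubqln2, which carries ubiquitin-tagged proteins to the proteasome, differed by 0.71 ± 0.14, with 1.00, 0.59 and 0.55 in the 3 rats (adjusted p = 0.0660). The next were Ubqln1 at 0.24 ± 0.14 and the core assembly chaperone Psmg2 at 0.30 ± 0.18 (adjusted p = 0.517 and 0.537). Of 18 measured genes for ubiquitin, its activation and its conjugation none passed and 3 were at an unadjusted p under 0.05. These were the conjugating enzymes Ube2k at 1.00 ± 0.19, Ube2h at 0.58 ± 0.19 and Ube2e3 at 0.44 ± 0.17, with adjusted p of 0.0589, 0.210 and 0.303. Each was higher in blood in all 3 rats and most so in rat S4. Of 18 cullin ligase genes none passed; Cul7, a scaffold, differed by -0.62 ± 0.13 (adjusted p = 0.0816), Cops4 by -0.19 ± 0.13 and Cul5 by 0.20 ± 0.15.

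Among 14 measured genes of the segregase p97 and of NRF1 regulation none passed. Nfe2l1, which encodes NRF1, differed by 0.45 in rat S4, 0.09 in rat S5 and -0.18 in rat S6, a mean of 0.12 ± 0.16 (adjusted p = 0.824). Nearly all subunits were lower in blood in rat S5, whereas Nfe2l1 was not. The part of NRF1 in the subunit values was not tested, and only its mRNA was measured. Its relative Nfe2l2, the regulator of antioxidant genes, differed by 0.60, 0.38 and 0.21, a mean of 0.40 ± 0.13 (adjusted p = 0.226). Mafg, a partner of both, differed by 0.50 ± 0.21, and Ufd1, a p97 cofactor, by 0.38 ± 0.16. Vcp, p97 itself, differed by 0.29, -0.26 and -0.05, close to the subunits. Within rats, the medians were 0.23, -0.06 and 0.02 for assembly and binding factors, 0.26, -0.09 and -0.03 for ubiquitin genes and 0.22, -0.15 and -0.11 for cullin ligases. For p97 and NRF1 genes they were 0.47, 0.02 and -0.05. The 7 measured genes of the immunoproteasome and interferon-induced peptide loading, 2 of which, Psme1 and Psme2, are members as well, had 0.07, -0.31 and 0.08, and none passed or had an unadjusted p under 0.05 in limma. The smallest p were those of B2m, the light chain of class I molecules, at 0.26 ± 0.15, the peptide trimmer Erap1 at 0.31 ± 0.19 and the interferon regulator Irf1 at -0.30 ± 0.26, with -1.08 in rat S5.

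**Figure D5:**
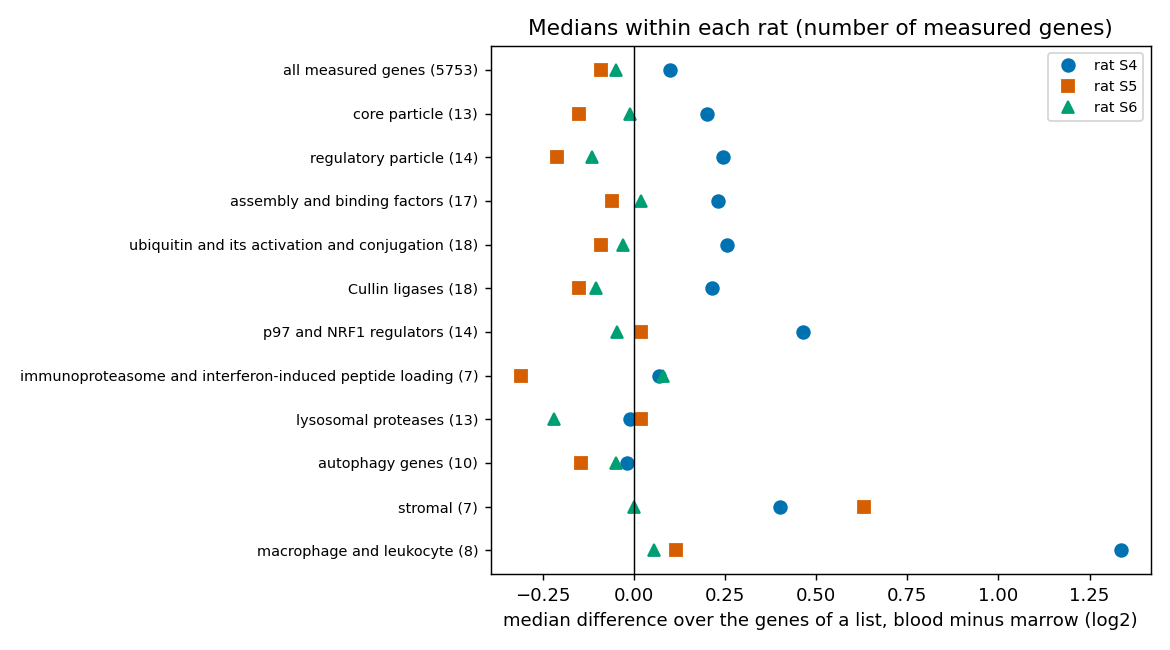
Median log2 difference over the measured genes of each list within rat S4 (circles), S5 (squares) and S6 (triangles), with the number of genes in parentheses. All measured genes have rat S4 highest and rat S5 lowest. The core and regulatory particle, the assembly and binding factors, the ubiquitin genes, the cullin ligases and the autophagy genes share this order. The macrophage and leukocyte markers stand at 1.34 in rat S4.

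Each blood array was run on an odd and each marrow array on an even fluidics module, and each blood array was scanned before the marrow array of its rat, so module and scan order cannot be told apart from the source. Station 1 held the 4 arrays of rats S4 and S5 and station 2 those of rat S6. Within station 1 the median differences were thus those without rat S6, 0.035 for both particles, and within station 2 those of rat S6 alone, -0.01 for the core and -0.115 for the regulatory particle.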

How the data were processed

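Signals of 6 arrays were read from the deposited table. They are taken as log2 values of the authors because they run from 0 to 13.31; per the submitters' processing notes the tool was GCOS, the array maker's software, and the probe summary, background correction and scaling were not given in the sources used here. Of 95538 cells 86 were empty and 94 were 0; none of these belonged to a proteasome probe set. The values were used as deposited, with no pseudocount.

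The 57 control probe sets were removed and 7625 probe sets kept by the filter. Of the 15866 others, 12783 had 1 gene symbol in the platform annotation, 312 several and 2771 none; 6 with several symbols name a proteasome gene and were left out. The brightest kept probe set stood for a gene, giving 5753 genes.

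limma 3.58.1 (R 4.3.3) gave two-sided tests of blood against marrow, the rat being a fixed term, since the series' design text pairs the cultures by animal. Deviations of same-rat arrays correlated at -0.25, 0.31 and 0.31, so the values alone do not show the pairing. Intervals are unadjusted. The fit was tested on simulated data of 7625 probe sets, where it recovered 96.2% of changes of 1 and all of changes of 2 log2 units. Those data held independent noise, without shifts between rats or arrays. Smaller changes, of the sizes seen in the members, were not simulated, so the recovery does not bear on them. Tables and figures used Python 3.11.15, pandas 2.3.3 and matplotlib 3.10.9. The number of arrays limits the precision.

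The members, gene lists and roles were chosen with earlier results of these data known. All members may be named; values on every array are given, in each role group, for the genes with the largest positive and negative difference and the 2 of smallest p, and for genes whose probe sets differ in sign. Psmc5 and genes set beside others were added after their values were seen. From each companion list the 3 genes of smallest p are named, with a few set beside the members. Alternatives were the rat term left out, each rat left out, other filters, 2 scalings, zeros as missing, another variance model, the mean of probe sets, and the fluidics station.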

Additional observations from a re-analysis of the deposited data

How the results depend on the processing

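No proteasome probe set passed in limma under any of the 11 alternatives, and 0 to 3 of them had an unadjusted p under 0.05. The lowest adjusted value was 0.079, for Psmd10 without the replicate block. The medians of both particles moved by less than the SD between rats. So did the differences of 14 of the genes given on every array (Psmb10, below the filter, was not followed), although those of Psmc4, Psmd7, Psme2 and Psme4 took both signs. Leaving out 1 of 3 rats cannot move a gene's mean difference by as much as that SD. The rat term, the filters, the zeros and the variance model left the differences of these genes unchanged. For single genes this comparison is therefore no test of stability, and for the particle medians it is a weak one. The filters and the zeros left those medians unchanged, and their sign changed with the rat left out. The count over all probe sets, 239, was 144 with no replicate block, 82 with no filter on signal, 120 above the median on all 6 arrays, 141 with the common trimmed mean, 135 after quantile normalization, and 0 to 422 when 1 rat was left out: 0 without rat S4, 422 without rat S5 and 73 without rat S6. It was 175 with a looser filter, above the median on at least 3 of all 6 arrays, added after the data were seen. Leaving out a rat leaves 1 residual degree of freedom. The causes were not tested. The sign of the mean difference changed in 1 of 35 member genes with the common trimmed mean and in 2 after quantile normalization. The station term could not be fitted beside the rat. Signal near the table's median has no known background, which limits Psmb10, Psmc3ip and the dimmest probe set of Psme4.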

Other observations

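Lysosomes and autophagy are the cell's other routes of protein breakdown. The 13 lysosomal protease and membrane genes, all measured, had median differences of -0.01 in rat S4, 0.02 in rat S5 and -0.22 in rat S6, and none passed or had an unadjusted p under 0.05 in limma. The members of smallest p were Ctsf at -0.33 ± 0.16, Ctss, a protease of macrophages, at 0.51 ± 0.26 and Lgmn at -0.20 ± 0.12. Ctss differed by 1.31 in rat S4, and by 0.16 and 0.05 in the others. Of 10 measured autophagy genes none passed in limma and 1 had an unadjusted p under 0.05, Ulk1, a kinase that starts autophagy, at -0.54 ± 0.15 (-0.77, -0.20 and -0.64 in the 3 rats, adjusted p = 0.163). Their medians were -0.02, -0.145 and -0.05 on the deposited values, with rat S5 lowest as for the proteasome subunits and for all measured genes. Gabarapl1 at -0.21 ± 0.14 and Wipi1 at 0.18 ± 0.12 followed. No test of the difference between these lists and the proteasome genes was made.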
